A study of Mus musculus with 8 samples.

Results

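Integrins are the cell surface receptors for the extracellular matrix, each built of an alpha and a beta subunit, and laminins are the matrix proteins on which satellite cells rest. A total of 32 genes of this adhesion system were examined in cultured satellite cells, the stem cells that mouse muscle keeps for repair: 19 integrin subunits, 10 laminin chains and 3 basement membrane linkers, out of 27109 genes tested. The members were chosen by name, as every non-control probe of the array that carries the symbol of a listed gene. This gave 45 probes, and all 32 members and all 45 probes passed the filter on dim signal.

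The cells were sorted from the hindlimbs of 3 to 4 month C57BL/6J animals and grown overnight. They received lentivirus that integrated either a Hoxa9-eGFP construct or eGFP alone, and eGFP-positive cells of both groups were sorted for RNA 5 days later. Both groups therefore carry an integrated provirus and eGFP and share strain, age, tissue and sort, and the comparison asks what Hoxa9 overexpression changed. There were 4 arrays per group (Agilent, 1 colour), with replicate numbers 1 to 4 shared by the groups, and the labels do not say whether those 4 samples came from separate animals. P-values therefore measure the spread between these samples, and having 4 arrays a group limits precision throughout.

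A laminin is a trimer of an alpha, a beta and a gamma chain, and the alpha chain carries the main binding site for integrins. In muscle the alpha7beta1 integrin and dystroglycan bind laminin that contains the alpha2 chain, while alpha3beta1, alpha6beta1 and alpha6beta4 bind laminins with alpha3 or alpha5 chains. Nidogens and perlecan join the laminin network to that of type IV collagen.

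The overexpressed gene was higher on the arrays labelled with it at 1 of its 2 probes. The brighter Hoxa9 probe lay between 5.31 and 5.81 on the Hoxa9 arrays and between -0.98 and -0.04 on the eGFP arrays, and a dimmer Hoxa9 probe ran the other way, at -3.52 to -3.34 against -1.95 to -1.50. All levels are log2 signals relative to the array's 75th percentile, and each difference is the Hoxa9 mean minus the eGFP mean on that log2 scale. Between 69.6% and 77.5% of spots were well above background. All 10 satellite cell and myoblast markers examined were well above background on every array, and their summed linear signal was 268 to 295 times the 75th percentile on the Hoxa9 arrays and 319 to 354 times on the eGFP arrays. Of these 10 markers 2 were higher and 4 lower (60% called, against 15.2% of all genes), with a median difference of -0.58. Pax7, which marks satellite cells, fell by 1.30 (SE 0.21, limma adjusted p = 0.004007), as did Myf5 by 1.62, Cdh15 by 0.67 and Chrna1 by 0.58, while Megf10 rose by 1.27 and Musk by 1.16, and the muscle determination factor Myod1 differed by -0.23 (adjusted p = 0.4794).

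Markers of other cell types were partly detected. Of 10 fibroblast markers 8 were well above background on all Hoxa9 arrays and 9 on all eGFP arrays. Counted in the same way, on Hoxa9 and then eGFP arrays, these were 4 and 3 of 10 endothelial, 7 and 7 of 10 leukocyte, 9 and 8 of 10 smooth muscle and pericyte, and 5 and 6 of 8 Schwann cell markers. Dpt of fibroblasts, Tie1 of endothelium and Kcnj8 of pericytes were above background on none of the 8 arrays, and the leukocyte genes Ptprc and Tyrobp did not pass the filter. Of 8 leukocyte markers measured 1 was called (12.5%, against 15.2% of all genes), and the median of the 8 was -0.09. The called marker was Laptm5, which fell by 3.49 (limma adjusted p = 9.282e-05). Of 9 smooth muscle and pericyte markers 3 were called (33.3%): Notch3 fell by 2.14, Acta2 fell by 1.32 and Cnn1 rose by 2.57. The median of the 9 was -0.01. The summed linear signal was 8.53 to 14.9 times the 75th percentile on the Hoxa9 arrays and 12.3 to 20.9 times on the eGFP arrays for 8 leukocyte markers, and 73.2 to 119 times against 127 to 187 times for 9 smooth muscle and pericyte markers. The part of these cells in the results was not tested.

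Each value below is the hybridization to a 60-base probe, and 6 of the 45 probes span a splice junction. The probes shown here are those of the Itga1 and Itga2 genes, which are neighbours, of the shared beta subunit Itgb1, and of the laminin chains Lama4 and Lamb2. The Itga1 probes are both shown because their changes differ in size. Sequences are those of the array design, from 5′ to 3′, with mm9 positions from the deposited files.
Itga1, brighter probe, chr13:115821387-115825525, minus strand, across a junction: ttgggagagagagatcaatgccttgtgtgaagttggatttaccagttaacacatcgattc
Itga1, dimmer probe, chr13:115756765-115758419, minus strand, across a junction: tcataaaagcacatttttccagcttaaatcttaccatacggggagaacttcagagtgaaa
Itga2, chr13:115626714-115626773, minus strand: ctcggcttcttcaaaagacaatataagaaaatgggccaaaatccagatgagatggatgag
Itgb1, chr8:131250081-131255976, plus strand, across a junction: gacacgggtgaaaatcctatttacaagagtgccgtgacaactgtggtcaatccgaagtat
Lama4, chr10:38825794-38825853, plus strand: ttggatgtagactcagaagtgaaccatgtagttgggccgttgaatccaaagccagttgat
Lamb2, chr9:108392189-108392248, plus strand: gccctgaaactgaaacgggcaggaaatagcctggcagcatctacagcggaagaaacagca

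The adhesion genes changed in both directions and by role. With Hoxa9, 12 members were higher and 7 lower, which is 59.4% of the 32, against 15.2% of all genes tested (7.83% higher and 7.42% lower, limma, Benjamini-Hochberg adjusted p under 0.05). In 21 members no Hoxa9 array fell within the range of the eGFP arrays or the reverse, so the groups did not overlap, against 23.6% of all genes. With no filter on dim probes 10 members were higher and 7 lower, and with only probes well above background on all 8 arrays 8 were higher and 6 lower. At least a 2-fold change was called in 9 members that were higher and 4 that were lower, against 9.16% of all genes. All 3 laminin-binding integrin alpha subunits fell, all 4 collagen-binding alpha subunits rose, and the beta subunits and laminin chains split. The median difference was 0.47 over the members and -0.07 over all genes, and the median size of a difference, sign aside, was 0.87 against 0.37.

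**Figure D1:**
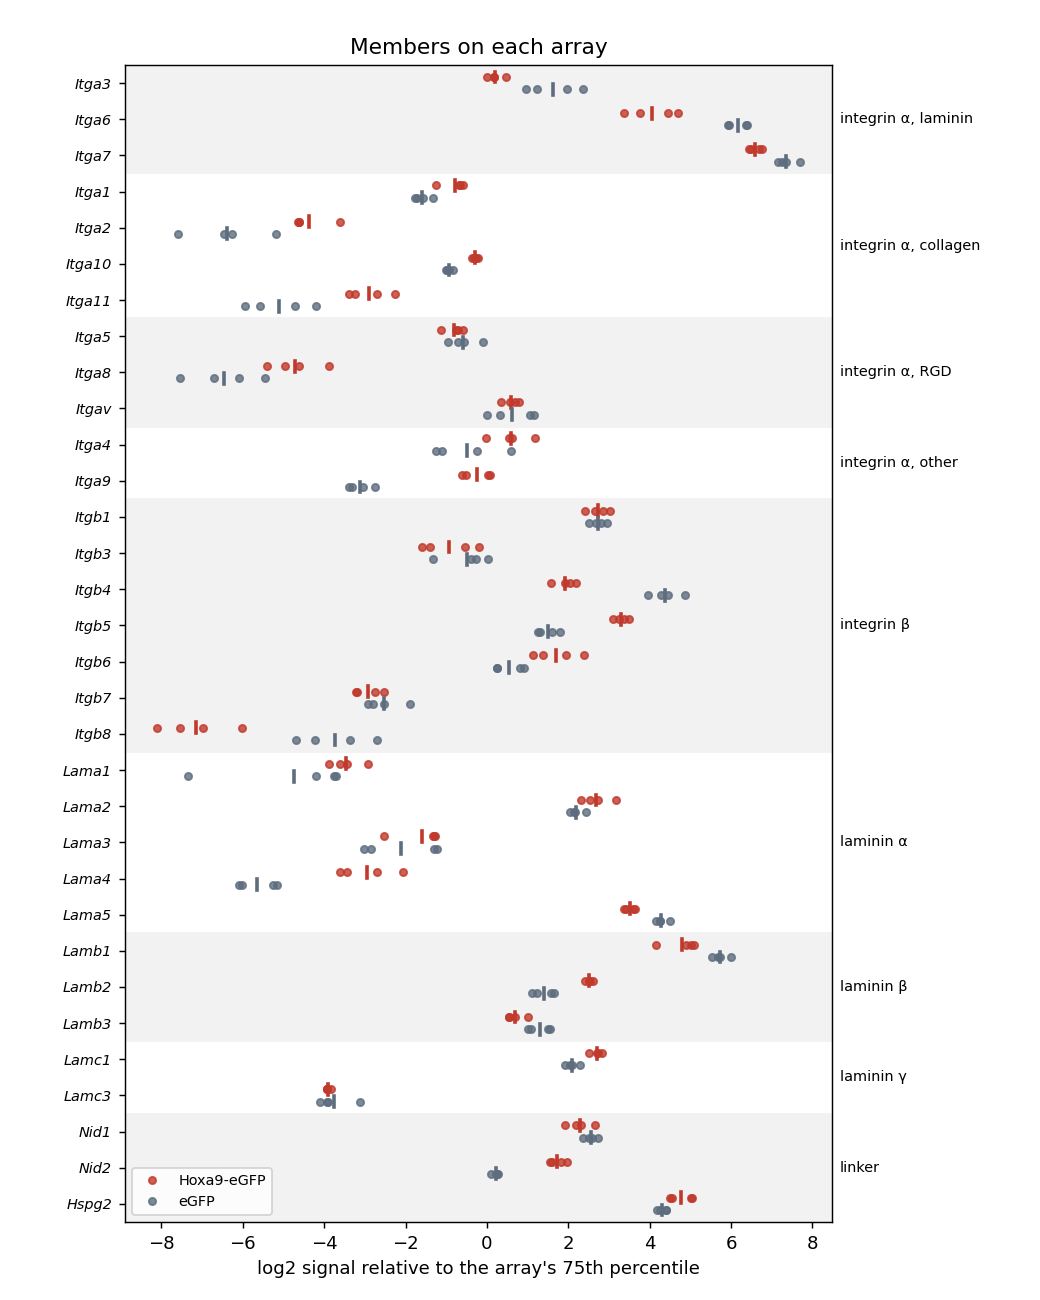
Level of each of the 32 members on each array, as log2 signal relative to the array's 75th percentile, with genes down the page grouped by role. Red points are the 4 Hoxa9-eGFP arrays, grey points the 4 eGFP arrays and bars the group means; in 21 members the red and grey points do not overlap.

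The laminin-binding integrin alpha subunits were all lower with Hoxa9. Itga6, which pairs with either Itgb1 or Itgb4, read 3.76, 3.36, 4.45 and 4.69 on Hoxa9 arrays 1 to 4, against 5.96, 5.93, 6.40 and 6.37 on eGFP arrays 1 to 4. Every Hoxa9 array lay at least 1 log2 unit under every eGFP array, and the gene fell by 2.10, or 4.29-fold (SE 0.30, limma adjusted p = 0.002497). Another Itga6 probe, which carries a different transcript accession in the files, fell by 1.55 (SE 0.22, limma adjusted p = 0.00242 in a fit over probes). Itga3, a laminin receptor best known in epithelium, read 0.46, 0.18, 0.17 and -0.01 on the Hoxa9 arrays, against 2.35, 1.97, 1.22 and 0.96 on the eGFP arrays. The groups were apart, the eGFP arrays were the more spread of the groups, and the gene fell by 1.42 (SE 0.31, adjusted p = 0.01616). Itga7, the chief laminin receptor subunit of muscle and of satellite cells, read 6.69, 6.45, 6.48 and 6.77 on the Hoxa9 arrays and 7.69, 7.24, 7.15 and 7.36 on the eGFP arrays. The groups did not overlap, and the fall of 0.76 (SE 0.17, adjusted p = 0.01633) was smaller than that of Itga6. In these bulk samples fewer cells of a type and less RNA per cell cannot be told apart. Without eGFP replicate 2 the call for Itga3 was lost (-1.31, adjusted p = 0.0522), and that for Itga7 was lost without Hoxa9 replicate 3 (-0.72, adjusted p = 0.05117) or with the slide as a block (-0.70, adjusted p = 0.05742).

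Itgb4 fell together with its partner Itga6. Itgb4 pairs with the alpha6 subunit alone, and in epithelium it anchors keratin filaments at hemidesmosomes. Its levels were 2.18, 2.03, 1.57 and 1.92 on the Hoxa9 arrays and 4.45, 4.86, 3.96 and 4.27 on the eGFP arrays. The groups were well apart, and the fall was 2.46, or 5.50-fold (SE 0.22, adjusted p = 0.0002939, limma). The fall within the 3 slides was 2.73, 1.86 and 2.70. Schwann cells also express this integrin, and of the 6 measured of 8 Schwann cell markers 1, Ngfr, was lower (-1.99, adjusted p = 0.0005006). The share called was 16.7% of these 6 markers, against 15.2% of all genes. The summed linear signal of those 6 was 1.91 to 2.13 times the 75th percentile on the Hoxa9 arrays and 3.18 to 5.23 times on the eGFP arrays, while Sox10 differed by -0.09. The part of these markers in the fall of Itgb4 and Itga6 was not tested.

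All 4 collagen-binding alpha subunits, which pair with Itgb1, rose. Itga11, a receptor for fibrillar collagen on mesenchymal cells, read -3.38, -3.24, -2.71 and -2.27 on the Hoxa9 arrays and -5.95, -4.20, -5.57 and -4.72 on the eGFP arrays. It was well above background on all Hoxa9 arrays and on 2 eGFP arrays, the groups did not overlap, and it rose by 2.21 (SE 0.42, limma adjusted p = 0.008735), against 0.85 with normexp. Itga2, a receptor for fibrillar collagen that also serves platelets, read -4.65, -4.62, -4.62 and -3.62 on the Hoxa9 arrays and -6.27, -7.59, -5.18 and -6.47 on the eGFP arrays. A single eGFP array was well above background for Itga2, Hoxa9 replicate 4 was the highest array, and the gene rose by 2.0 (SE 0.49, adjusted p = 0.02642). For both Itga11 and Itga2 the Hoxa9 arrays alone were enough to pass the filter on dim signal. That favours a difference, so the p-values of these genes add little weight. Itga10, described mainly in cartilage, showed the least spread of the 4, at -0.31, -0.37, -0.26 and -0.23 on the Hoxa9 arrays and -0.94, -1.01, -0.99 and -0.83 on the eGFP arrays. It rose by 0.65 (SE 0.12, adjusted p = 0.00826), and a second probe that shares 54 bases with the first rose by 0.61.

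Itga1, a receptor that prefers type IV collagen, gave unequal sizes at its junction probes. The brighter probe shown above read -0.59, -0.69, -1.24 and -0.66 on the Hoxa9 arrays and -1.72, -1.58, -1.76 and -1.32 on the eGFP arrays, and rose by 0.80 (SE 0.19, limma adjusted p = 0.02388). Hoxa9 replicate 3 was the lowest of its group and still above every eGFP array. The dimmer probe, which 1 eGFP array detected well above background, rose by 2.65 (SE 0.57, limma adjusted p = 0.01751 over probes). The Hoxa9 arrays alone were enough for that probe to pass the filter on dim signal, so its p adds little weight. The call for Itga1 was lost without any of Hoxa9 replicates 1 and 4 and eGFP replicates 1, 2 and 3 (adjusted p of 0.0622 to 0.07121) and with the slide as a block (0.79, adjusted p = 0.07901). That for Itga2 was lost without any of Hoxa9 replicates 1, 3 and 4 and eGFP replicates 1 and 4 (0.05255 to 0.06786), with the slide as a block (1.90, adjusted p = 0.08944) and with normexp background correction (0.42, adjusted p = 0.1483).

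Of 10 fibroblast markers 9 were measured. Their summed linear signal was 28.4 to 50.1 times the 75th percentile on the Hoxa9 arrays and 9.05 to 21.9 times on the eGFP arrays. Ly6a was the 1 marker called (11.1%, against 15.2% of all genes), rising by 4.55 (SE 0.48, limma adjusted p = 0.0005626). The list was mixed, with a median difference of 0.13, 6 markers above 0 and 3 below it. The part of such markers in the rise of the collagen receptors was not tested.

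**Figure D2:**
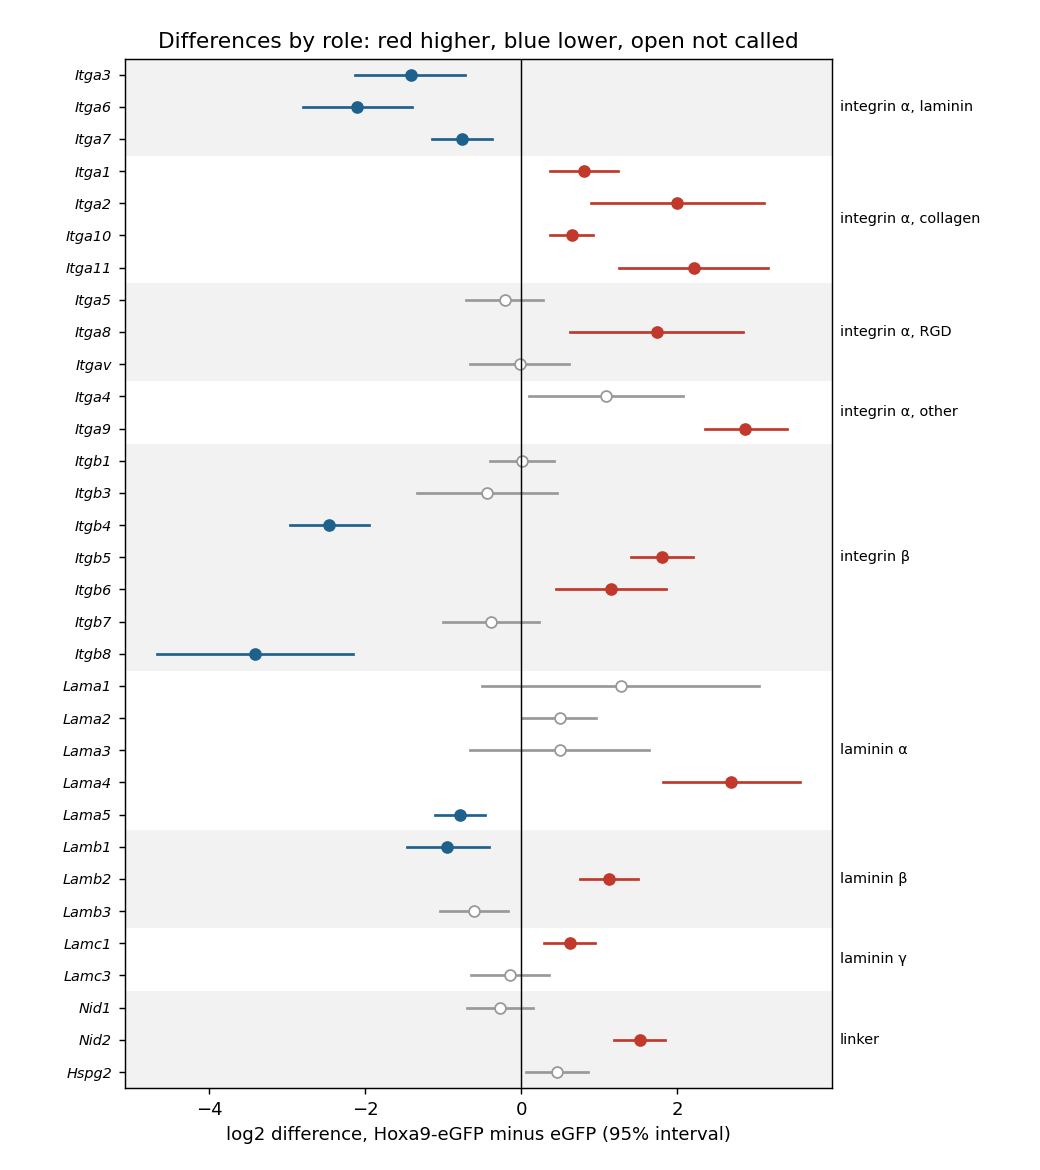
Log2 difference of each member, Hoxa9-eGFP minus eGFP (x axis), with its 95% interval, grouped by role. Red marks the 12 members called higher, blue the 7 called lower and open grey the 13 not called; the 3 laminin-binding alpha subunits lie left of 0 and the 4 collagen-binding ones right of it.

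Itga9 had the largest fitted rise among the 32 members. It forms a receptor with Itgb1 for tenascin-C, osteopontin and VCAM-1, and it read -0.52, -0.61, 0.08 and 0.03 on the Hoxa9 arrays and -3.39, -2.74, -3.05 and -3.32 on the eGFP arrays. More than 2 log2 units separated the groups, and the rise was 2.87, or 7.33-fold (SE 0.23, limma adjusted p = 0.000157). Within slides it was 3.1, 2.49 and 3.40. The related Itga4, which binds VCAM-1 and fibronectin, read 0.55, 1.17, -0.02 and 0.62 on the Hoxa9 arrays and -1.10, -1.24, -0.24 and 0.58 on the eGFP arrays. The groups overlapped, with eGFP replicate 4 among the Hoxa9 values, and the difference was 1.08 (SE 0.43, adjusted p = 0.143). Without that array Itga4 passed the threshold (1.44, adjusted p = 0.03774).

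The alpha subunits that recognise the RGD tripeptide mostly did not pass the test. Itga5, the fibronectin receptor subunit, ranged from -1.14 to -0.58 on the Hoxa9 arrays and from -0.95 to -0.10 on the eGFP arrays, with a difference of -0.21 (95% interval -0.71 to 0.28, adjusted p = 0.5447). Itgav, the partner of several beta subunits, ranged from 0.35 to 0.80 on the Hoxa9 arrays and from 0.00 to 1.15 on the eGFP arrays, with a difference of -0.02 (95% interval -0.66 to 0.61, adjusted p = 0.9668). Neither interval reaches a 2-fold change. Itga8, a nephronectin receptor subunit of mesenchyme, read -3.89, -4.96, -5.40 and -4.61 on the Hoxa9 arrays and -6.71, -7.55, -6.10 and -5.45 on the eGFP arrays. It was well above background on all Hoxa9 arrays and on no eGFP array, so its rise is a bound, at least 2.63-fold (limma adjusted p = 0.04483, group means -4.72 and -6.45). It passed the filter on dim signal through the Hoxa9 arrays alone, which favours a difference, so the p adds little weight. The call was lost when replicate numbers were blocked (adjusted p = 0.06038), with the slide as a block (1.54, adjusted p = 0.1179), with normexp (0.35, adjusted p = 0.2086), with quantile normalization (adjusted p = 0.06559), with an intensity trend (0.05988) and with no filter on dim probes (0.06445). It was also lost without any array but Hoxa9 replicate 3 or eGFP replicate 4 (adjusted p of 0.06524 to 0.1085), and the slides gave 2.52, 1.68 and 0.04.

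Promoters of 22 of the 32 members were in the RefSeq table (GRCm38.p6), with 25 starts. Letter patterns were searched on both strands in the 250 bases before each start. They were TGATTNAT, a composite recognised by Hox and Pbx proteins together, and TTTATGG, close to the core that posterior Hox proteins prefer. TGATTNAT was in 1 of the 25, that of Itga9, against 2.82% of 32851 promoters, and TTTATGG in 1 of the 25, that of Itga8, against 2.43%. The 2 windows are printed 5′ to 3′ on the gene's strand, ending at the base before the start, with the matched letters in capitals, both of them reverse complements of the pattern. A match describes these letters and shows no binding.
Itga9, chr9:118711442-118711691, plus strand, match beginning 220 bases before the start: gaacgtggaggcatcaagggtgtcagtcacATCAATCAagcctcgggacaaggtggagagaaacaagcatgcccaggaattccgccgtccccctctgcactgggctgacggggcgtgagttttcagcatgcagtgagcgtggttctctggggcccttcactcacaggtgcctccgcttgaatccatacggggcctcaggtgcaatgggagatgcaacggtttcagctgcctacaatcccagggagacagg
Itga8, chr2:12301945-12302194, minus strand, match beginning 185 bases before the start: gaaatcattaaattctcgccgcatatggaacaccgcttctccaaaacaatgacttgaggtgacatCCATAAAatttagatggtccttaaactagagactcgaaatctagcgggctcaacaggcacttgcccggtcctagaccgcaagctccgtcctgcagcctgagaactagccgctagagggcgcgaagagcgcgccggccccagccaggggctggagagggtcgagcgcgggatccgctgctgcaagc

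The common beta subunit differed little, while the partners of Itgav parted. Itgb1, which pairs with most of the alpha subunits above, read 2.66, 2.40, 2.86 and 3.03 on the Hoxa9 arrays and 2.80, 2.50, 2.94 and 2.67 on the eGFP arrays. The groups overlapped, and the difference was 0.01 (95% interval -0.40 to 0.42, limma adjusted p = 0.9771). Itgb5, a vitronectin receptor subunit, read 3.09, 3.50, 3.24 and 3.36 on the Hoxa9 arrays and 1.31, 1.26, 1.80 and 1.60 on the eGFP arrays. All Hoxa9 arrays lay above all eGFP arrays by more than 1 log2 unit, and the rise was 1.80, or 3.49-fold (SE 0.17, adjusted p = 0.0003746). Itgb6, an epithelial subunit that helps release latent TGF-beta, read 1.37, 1.12, 1.95 and 2.38 on the Hoxa9 arrays and 0.24, 0.24, 0.81 and 0.92 on the eGFP arrays. Those groups were apart by a narrow gap, with a rise of 1.15 (SE 0.31, adjusted p = 0.03883), while the second Itgb6 probe differed by 1.21 and did not pass (adjusted p = 0.1732).

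Itgb8, which also takes part in releasing latent TGF-beta, had the lowest fitted difference among the members, at a probe too dim to rank. It read -6.01, -7.54, -8.11 and -6.98 on the Hoxa9 arrays and -4.22, -4.69, -2.70 and -3.37 on the eGFP arrays. No Hoxa9 array was well above background and every eGFP array was, so the fall is a bound, at least 5.59-fold (limma adjusted p = 0.004077, group means -7.16 and -3.75). It passed the filter on dim signal through the eGFP arrays alone, so this p too adds little weight. With normexp the difference was -0.67 (adjusted p = 0.06901), against -2.22 for Itgb4. The platelet and endothelial subunit Itgb3 ranged from -1.59 to -0.20 on the Hoxa9 arrays and from -1.33 to 0.02 on the eGFP arrays, and Itgb7, known from lymphocytes, from -3.22 to -2.52 and from -2.92 to -1.88. Both sets of ranges overlapped, and the differences were -0.44 (adjusted p = 0.5018) and -0.39 (adjusted p = 0.3974). The call for Itgb6 was lost without any 1 array other than Hoxa9 replicate 2 (adjusted p of 0.05063 to 0.1094) and with the slide as a block (1.22, adjusted p = 0.06855), no filter on dim probes (0.05754) or the mean of its probes (0.08669).

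The laminin alpha chains changed unequally. Lama4, the chain of vessel walls and of nerve, had the largest fitted rise among the 10 chains, reading -3.60, -3.45, -2.71 and -2.07 on the Hoxa9 arrays and -5.17, -6.10, -5.27 and -6.03 on the eGFP arrays. The groups did not overlap and 2 eGFP arrays were well above background, and the rise was 2.69, or 6.44-fold (SE 0.38, limma adjusted p = 0.002311), against 0.93 with normexp, a setting in which Lamb2 rose by 1.05. The Hoxa9 arrays alone were enough for Lama4 to pass the filter on dim signal, so its p adds little weight. Lama5, the broadly expressed ligand of alpha3 and alpha6 integrins, read 3.41, 3.64, 3.60 and 3.38 on the Hoxa9 arrays and 4.15, 4.26, 4.25 and 4.49 on the eGFP arrays. Both groups were tight and apart, and the chain fell by 0.78 (SE 0.14, adjusted p = 0.006912). Lama2, the main alpha chain of adult muscle and the ligand of alpha7beta1, read 2.72, 3.18, 2.54 and 2.30 on the Hoxa9 arrays and 2.44, 2.15, 2.05 and 2.16 on the eGFP arrays. The lowest Hoxa9 array lay within the eGFP range, and the difference was 0.49 (95% interval 0.01 to 0.96, adjusted p = 0.1714). Of 10 endothelial markers 6 were measured, 2 with a difference above 0 and 4 below it, with a median of -0.33. Among them 1 was called (16.7%, against 15.2% of all genes), Esam (1.57, adjusted p = 0.001148), which 2 eGFP arrays detected. The Hoxa9 arrays alone were enough for Esam to pass the filter, so its p adds little weight. The 6 summed to 11.7 to 17.8 times the 75th percentile on the Hoxa9 arrays and 9.10 to 14.7 times on the eGFP arrays. Their part in the level of Lama4 was not tested.

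The remaining alpha chains, Lama1 of embryonic basement membranes and Lama3 of epithelial ones, gave values that differed with single arrays or between probes. Lama1 read -3.62, -3.44, -2.93 and -3.89 on the Hoxa9 arrays and -7.35, -3.75, -3.70 and -4.19 on the eGFP arrays. A single array, eGFP replicate 1, was far below the rest and not well above background, and the difference of 1.28 (SE 0.77, adjusted p = 0.3348) became 0.41 without it. The brighter Lama3 probe read -1.33, -1.28, -1.29 and -2.52 on the Hoxa9 arrays and -2.86, -3.01, -1.30 and -1.23 on the eGFP arrays, so the groups overlapped (difference 0.49, adjusted p = 0.5511). The dimmer Lama3 probe was well above background on all Hoxa9 arrays and on no eGFP array, with means of -4.61 and -7.07, at least 3.26-fold higher (limma adjusted p = 0.004125 over probes). That probe passed the filter on dim signal through the Hoxa9 arrays alone, so its p adds little weight. The probes of Lama3 thus gave different calls.

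**Figure D3:**
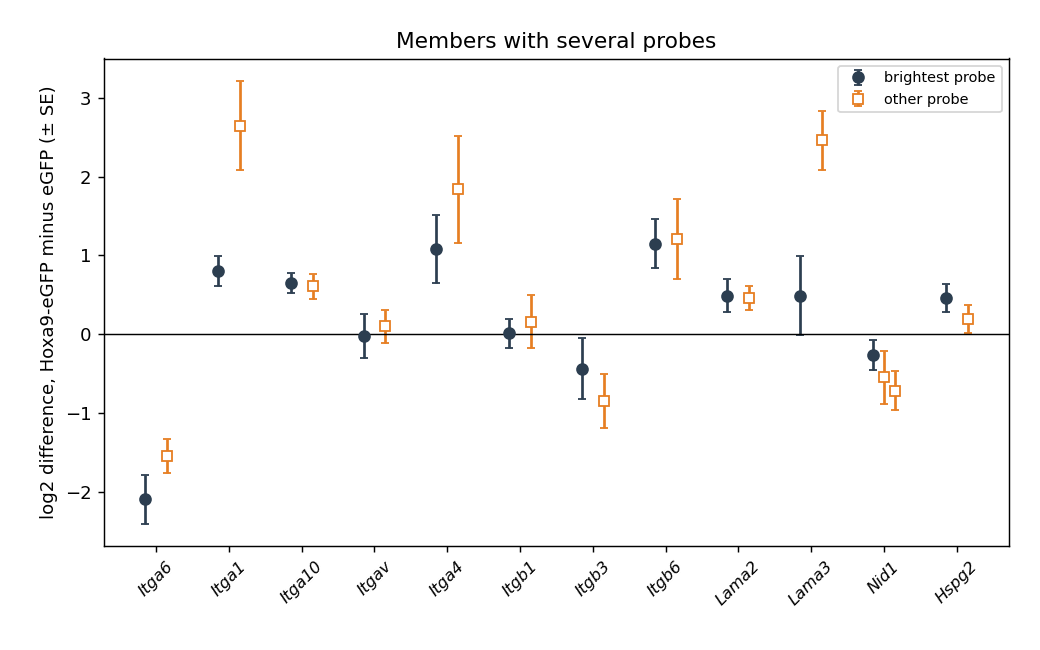
Log2 difference, Hoxa9-eGFP minus eGFP (y axis, error bars SE), at each probe of the 12 members with several probes. Filled circles are the brightest probe of a gene and open squares the others; the probes of Itga1 (0.80 and 2.65) and Lama3 (0.49 and 2.46) lie furthest apart, and those of Itgav (-0.02 and 0.10) differ in sign.

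The beta chains of laminin parted. Lamb1, the widespread beta chain, read 5.01, 5.10, 4.89 and 4.16 on the Hoxa9 arrays and 6.00, 5.73, 5.68 and 5.53 on the eGFP arrays. Hoxa9 replicate 4 was the lowest, all arrays of the groups were apart, and the chain fell by 0.95 (SE 0.23, limma adjusted p = 0.02663). Lamb2, the beta chain of neuromuscular junctions and vessel walls, read 2.50, 2.61, 2.42 and 2.54 on the Hoxa9 arrays and 1.66, 1.58, 1.11 and 1.24 on the eGFP arrays. It rose by 1.12 (SE 0.16, adjusted p = 0.002476), the 4 Hoxa9 arrays lying within 0.2 of each other. Lamb3, part of epithelial laminin together with Lama3, read 0.54, 1.0, 0.69 and 0.53 on the Hoxa9 arrays and 1.56, 1.51, 1.01 and 1.09 on the eGFP arrays. Its groups were barely apart, and the difference of -0.60 (SE 0.19, adjusted p = 0.06977) did not pass. It did pass under 5 alternatives, with quantile normalization (adjusted p = 0.04796), normexp (0.04364), an intensity trend (0.04435) or array weights (0.02138) and without Hoxa9 replicate 2 (0.04412). The call for Lamb1 was lost without any of Hoxa9 replicate 3 and eGFP replicates 1, 2 and 3 (adjusted p of 0.05599 to 0.0711), with the slide as a block (-1.02, adjusted p = 0.05367) and with a median shift (-0.98, adjusted p = 0.07946).

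Lamc1, the gamma chain of most laminins, read 2.52, 2.83, 2.74 and 2.71 on the Hoxa9 arrays and 2.28, 2.04, 1.91 and 2.09 on the eGFP arrays. The groups were apart, and it rose by 0.62 (SE 0.14, limma adjusted p = 0.0211). That call was lost when replicate numbers were blocked (adjusted p = 0.0567), with the slide as a block (0.66, adjusted p = 0.05278), with normexp (0.44, adjusted p = 0.08417), with a median shift (0.59, adjusted p = 0.1061) and without any of Hoxa9 replicate 3 and eGFP replicates 2 and 3 (0.05896 to 0.06753). Lamc3, a gamma chain of restricted distribution, ranged from -3.94 to -3.84 on the Hoxa9 arrays and from -4.10 to -3.13 on the eGFP arrays. The narrow Hoxa9 range lay inside that of eGFP, and the difference was -0.14 (adjusted p = 0.697).

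Among the linkers the nidogens, which bridge laminin and type IV collagen, did not change alike. Nid2 read 1.56, 1.59, 1.82 and 1.96 on the Hoxa9 arrays and 0.25, 0.27, 0.23 and 0.10 on the eGFP arrays. The groups were more than 1 log2 unit apart, and Nid2 rose by 1.52, or 2.86-fold (SE 0.14, limma adjusted p = 0.0003341). Nid1, the more widespread nidogen, ranged from 1.92 to 2.66 on the Hoxa9 arrays and from 2.35 to 2.73 on the eGFP arrays. These overlapped, and the difference was -0.27 (adjusted p = 0.3833), with -0.55 and -0.72 at its other 2 probes. Hspg2, which encodes the heparan sulfate proteoglycan perlecan, read 4.50, 5.02, 5.03 and 4.55 on the Hoxa9 arrays and 4.17, 4.26, 4.41 and 4.41 on the eGFP arrays. Its groups did not overlap, yet the difference of 0.46 (SE 0.17, adjusted p = 0.1259) did not pass.

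Unequal change was tested directly for 8 pairs of members by an exact permutation test over arrays (two-sided, 70 splits, smallest possible p 0.02857), adjusted over the 8. The pairs were set up with earlier results of these data known. Itga7 fell less than Itga6, with a difference of changes of 1.34 (adjusted p = 0.04571, exact permutation). Lamb2 and Lamb1 parted by 2.07, Nid2 and Nid1 by 1.79, and Lama2 and Lama5 by 1.27, each at the smallest p and an adjusted p of 0.04571 (exact permutation). Lama2 changed by 2.20 less than Lama4, at the same p. In these 5 pairs the 4 Hoxa9 arrays lay wholly to 1 side of the 4 eGFP arrays. For Lamb2 and Lamb1 this was fixed in advance, since the groups did not overlap in either gene and the genes changed in opposite directions. The ranges of the single genes also fixed it for Nid2 and Nid1, Lama2 and Lama5, and Lama2 and Lama4. For Itga7 and Itga6 they all but fixed it. The p-values of these 5 pairs therefore add little or no weight beyond the single-gene values. The pair Itga1 and Itga11 gave -1.41 (exact permutation p = 0.05714, adjusted 0.07619), Itgb1 and Itgb3 gave 0.45 (p = 0.2, adjusted 0.2286), and Itga5 and Itgav gave -0.19 (p = 0.7143 before and after adjustment). The permutation does not use the pairing of replicate numbers. Within same-numbered pairs Itga1 and Itga11 gave -1.43, -0.07, -2.34 and -1.79, and Itgb1 and Itgb3 gave 0.88, 0.16, 0.14 and 0.63, each of a single sign. Each of the 5 pairs that passed lost its call when single arrays were left out, Lama2 and Lama4 in 5 of 8 cases and the others in 4 of 8.

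**Figure D4:**
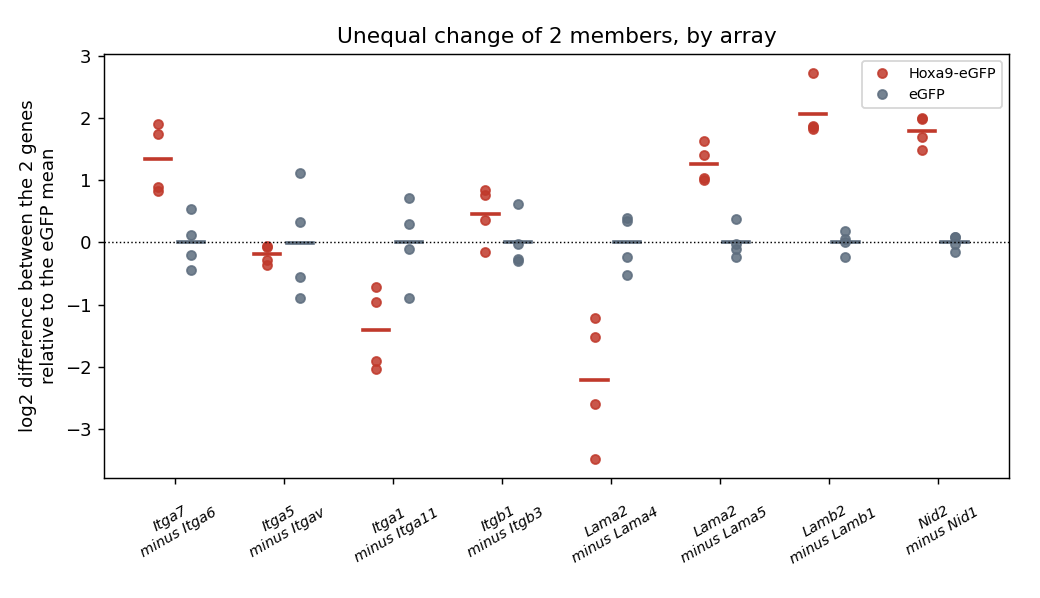
Log2 level of the first gene minus that of the other for 8 pairs of members, on each array, relative to the mean of the eGFP arrays (y axis). Red points are the Hoxa9-eGFP arrays and grey points the eGFP arrays, with group means as bars; the red points of Lamb2 minus Lamb1 lie between 1.82 and 2.72 and the grey ones between -0.23 and 0.18.

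Receptors can be set beside the chains that they bind. For the epithelial type of adhesion, Itga6 and Itgb4 fell, while Lamb3 differed by -0.60 and did not pass. Lama3 was not called at its brighter probe, but was called higher at its dimmer one and by the mean of its probes (1.47, limma adjusted p = 0.007627). The dimmer probe passed the filter through the Hoxa9 arrays alone, so these Lama3 calls add little weight. Col17a1, a transmembrane collagen of hemidesmosomes, well above background on 2 Hoxa9 arrays, fell by 2.94 (SE 0.32, limma adjusted p = 0.0006542). The eGFP arrays alone were enough for Col17a1 to pass the filter, so its p adds little weight. For the broadly expressed laminins, Lama5 and Lamb1 fell as did Itga3 and Itga6, whereas their gamma chain Lamc1 rose. For the muscle type, Itga7 fell and Lama2 did not pass, whereas Lamb2 and the shared Lamc1 rose. The dystroglycan complex is the other laminin receptor of muscle, and its list here also held Bcam and Cd151, which are not part of it. Of the 16 measured genes of this list 0 were called (limma), against 15.2% of all genes. At an unadjusted p under 0.05 there were 3 of the 16, Cd151 among them, against 7456 of all 27109 genes. The other settings gave 0 to 3 called higher and 0 to 1 lower. Dag1, the laminin-binding member of the complex, differed by 0.32 (adjusted p = 0.46). Of 12 genes that glycosylate dystroglycan 1 was called (8.33%), Pomgnt2, a rise of 0.63 (adjusted p = 0.03064).

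Of 23 measured genes of other basement membrane proteins 2 rose and 6 fell, with a median of -0.31 (34.8% called, against 15.2% of all genes). Besides Col17a1, the fibulin gene Fbln1 fell by 1.41 (adjusted p = 0.002283, limma), while Fras1, an epidermal basement membrane protein, rose by 1.77 (adjusted p = 0.005904) and the calcium-binding matrix gene Smoc2 by 2.06 (adjusted p = 0.01553). The type IV collagen chains that nidogens and Itga1 bind, Col4a1 (-0.76, adjusted p = 0.09444) and Col4a2 (-0.59, adjusted p = 0.07286), did not pass. The 25 measured genes for other integrin ligands gave 9 higher and 4 lower, with a median of 0.65 (52% called). Vcam1, a ligand of the Itga4 and Itga9 receptors, fell by 2.59 (SE 0.19, adjusted p = 0.0001102), while Itga9 rose. Of its other ligands named above, osteopontin (Spp1) fell by 0.90 (adjusted p = 0.04223) and tenascin-C (Tnc) differed by 0.50 (adjusted p = 0.5327). Among collagen ligands Col1a2 fell by 2.49 (adjusted p = 0.001285) and Col6a2 rose by 2.67 (adjusted p = 0.001302). Col6a1 (1.35, adjusted p = 0.004566) and Col5a1 (0.93, adjusted p = 0.02009) also rose, while Col1a1, Col3a1 and Col6a3 did not pass. Ccn3, a matricellular protein that binds several integrins, was above background on no eGFP array and was at least 81.9-fold higher (means 0.04 and -7.28, limma adjusted p = 6.218e-05). It passed the filter on dim signal through the Hoxa9 arrays alone, so its p adds little weight. Fibronectin, Fn1, differed by 0.33 (adjusted p = 0.2095).

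Inside the cell, 3 of 29 measured adhesion adaptors rose and 3 fell, with a median of -0.13. The share called was 20.7%, near the 15.2% of all genes. Parvb, which links integrin-linked kinase to actin, fell by 1.30 (SE 0.21, limma adjusted p = 0.003923), as did the tensin gene Tns3 by 1.37 (adjusted p = 0.01112) and Zyx, of focal adhesions, by 0.85 (adjusted p = 0.02817). Tln2, the talin isoform prominent in muscle, rose by 0.97 (adjusted p = 0.01071), whereas Tln1 differed by -0.28 (adjusted p = 0.2323) and the focal adhesion kinase gene Ptk2 by -0.29 (adjusted p = 0.4022). Of 7 leukocyte and platelet integrin genes 4 were measured and 0 were called (limma), against 15.2% of all genes. At an unadjusted p under 0.05 there were also 0, against 7456 of all 27109 genes.

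The 3 slides each held both groups, and the replicate numbers, which the groups share, offer a second way to match arrays. Since the groups did not overlap in any of the 19 called members, the sign within a slide or pair is fixed, and such values show size alone. With the slide as a block 7 members were called higher and 5 lower, and with the replicate number as a block 10 higher and 7 lower. The 7 calls lost with the slide block were Itga7, Itga1, Itga2, Itga8, Itgb6, Lamb1 and Lamc1. In 10 members, Itga6, Itga10, Itga11, Itga9, Itgb4, Itgb5, Lama4, Lama5, Lamb2 and Nid2, the call held under every alternative fitted to them other than the 2-fold minimum. Itga10 and Lama5 did not reach that minimum. Itga11 and Lama4, well above background on 2 eGFP arrays, dropped out under the stricter filter and were not tested there.

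**Figure D5:**
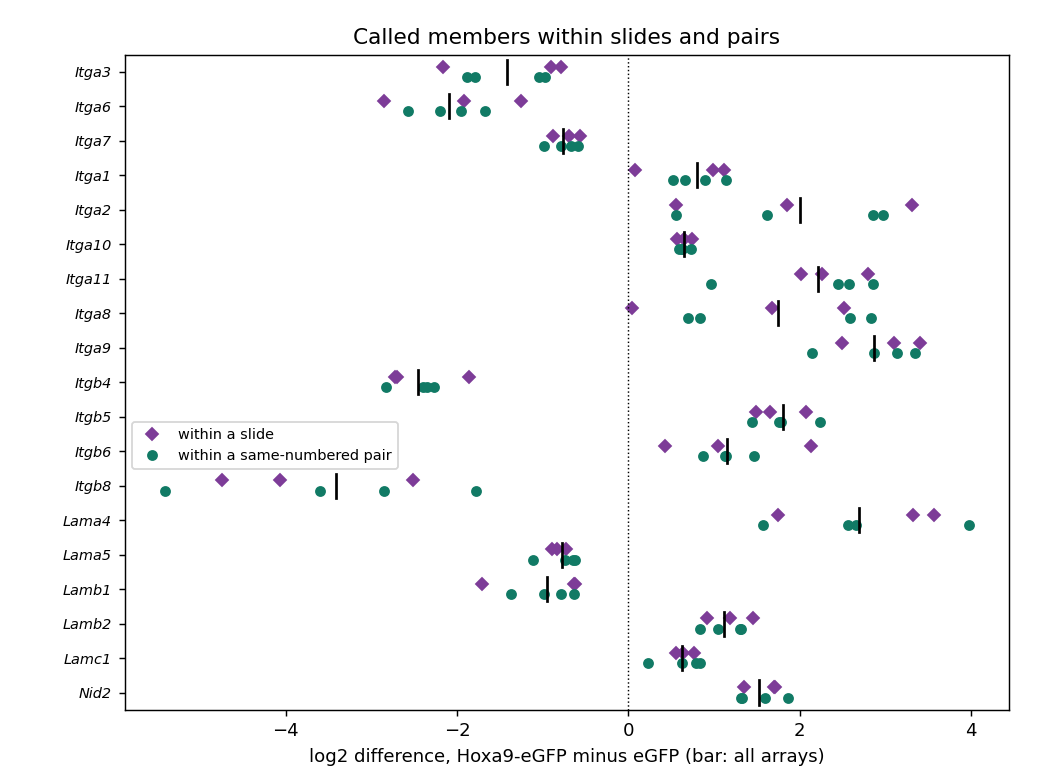
Log2 difference, Hoxa9-eGFP minus eGFP (x axis), of the 19 called members within each of 3 slides (diamonds) and each of 4 same-numbered pairs (circles), with the value over all arrays as a black bar. The sign is fixed because the groups of these members do not overlap; the sizes vary, as in Itga8, whose values within slides run from 0.04 to 2.52.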

How the data were processed

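Gene expression was measured in 8 samples, 4 per group, on 1-colour Agilent mouse 8x60K arrays from 0.1 ug of RNA. The deposited intensity values are scanner output that the authors made with Agilent Feature Extraction 10.7.3.1, per the submitters' processing notes and the file headers, which also give mm9 for probe positions. In the other deposited table of processed values, 86.1% to 87.3% of cells lack the decimal point. With it restored, its columns are log2 signals with a constant shift per array, with medians of -3.36 to -2.95, no centring by gene and the scanner's direction, and it served as an alternative.

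Levels are log2 of the processed signal minus the array's 75th percentile. Control spots and outlier spots were left out (180 of 55681 probes), and spots of a probe averaged. The 40771 probes detected well above background on 4 or more of the 8 arrays were kept. Each gene was read at its brightest probe, giving 27109 genes, with 1711 names updated through RefSeq and 0 of them to a member. No spot was saturated. Where no array of a group was well above background, the fold is a bound, taken on each dim array against the lowest detected signal or that of the probe if brighter. The lowest detected signal is approximate.

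The test was limma (version 3.58.1, R 4.3.3), fitted with lmFit and eBayes with group as its term, two-sided, with p-values adjusted over all genes by Benjamini-Hochberg at a threshold of 0.05. It was tested on simulated data. Members, pairs and lists were chosen with earlier results of these data known. Named genes are every member, Hoxa9, up to 4 called genes of lowest adjusted p per list, and Dag1, Col4a1, Col4a2, Fn1, Vcam1, Ptk2, Tln1, Pax7 and Myod1. Some genes counted in the list totals are not reported here by name. The markers Sox10, Cdh15 and Chrna1 were named after their values were seen. So were the ligands Spp1, Tnc, Col1a1, Col3a1, Col5a1, Col6a1 and Col6a3. Deviations from group means correlated at 0.143, 0.228, 0.129 and 0.186 in same-numbered pairs, all above the limit of 0.1 for pairing, as did 2 of the unlike-numbered pairs (0.188 and 0.137). The arrays lay on 3 slides. Alternatives were the replicate number or slide as a block, quantile normalization, a median shift, normexp (offset 50), no or a stricter filter, probe means per gene, the deposited table, an intensity trend, array weights, leaving out each array and a 2-fold minimum.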

Additional observations from a re-analysis of the deposited data

Results flagged for a closer look

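In 4 of the 64 sets of 4 arrays (32 members in each group) a single array stood apart from the other 3 by Dixon's criterion at 95%, which chance alone meets in about 1 set in 20. Itga1 read -1.24 in Hoxa9 replicate 3, against -0.69 to -0.59 on the other Hoxa9 arrays. Itga2 read -3.62 in Hoxa9 replicate 4, against -4.65 to -4.62. Lama3, at its brighter probe, read -2.52 in Hoxa9 replicate 4, against -1.33 to -1.28. Lama1 read -7.35 in eGFP replicate 1, against -4.19 to -3.70 on the other eGFP arrays, and was not well above background there.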

How the results depend on the processing

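Over all alternatives the 32 members gave 554 results on the same side of the threshold, 53 weaker, 8 stronger and 0 reversed. Of 4134 genes called, 2482 (1357 higher, 1125 lower) changed at least 2-fold. Leaving out an array gave 2873 to 3795 genes called, 1580 to 1906 of them higher and 1293 to 1889 lower, the fewest lower without eGFP replicate 2. Members called higher numbered 12, with 7 under the slide block, 10 under the replicate block and 8 to 11 without an array. Those called lower numbered 7, with 4 at a 2-fold minimum, 7 under the replicate block and 5 to 8 without an array. With normexp background correction 5 pair differences missed the threshold: Itga7 and Itga6 1.42, Lama2 and Lama5 1.20, Lamb2 and Lamb1 2.07 and Nid2 and Nid1 1.69 (each adjusted p = 0.05714, exact permutation), and Lama2 and Lama4 -0.60 (adjusted p = 0.2286). Of these only Lama2 and Lama4 left the smallest possible p. The adjusted p of the others rose because fewer pairs shared that smallest p. Leaving out an array gave ranges of 1.15 to 1.52 for Itga7 and Itga6, -2.53 to -1.78 for Lama2 and Lama4, 1.15 to 1.39 for Lama2 and Lama5, 1.85 to 2.15 for Lamb2 and Lamb1, and 1.72 to 1.89 for Nid2 and Nid1. The same gave -1.70 to -1.17 for Itga1 and Itga11, which passed without eGFP replicate 2 (-1.70), 0.32 to 0.65 for Itgb1 and Itgb3, and -0.49 to 0.18 for Itga5 and Itgav, whose sign turned without eGFP replicate 1 (0.18). Without Hoxa9 replicate 1 or 2 or eGFP replicate 1 or 4 the 5 pairs that had passed missed the threshold (adjusted p of 0.05714 to 0.09143, exact permutation). Where the adjusted p was 0.05714, the pair kept the smallest possible p and fewer pairs shared it. Lama2 and Lama4 also missed it without eGFP replicate 2 (0.07619). The replicate block changed no other call among the members than those of Itga8 and Lamc1. Of the 19 called members, 5 (Itga2, Itga11, Itga8, Itgb8 and Lama4) were not well above background on every array, and low signal limits their size. In each, the arrays of the brighter group alone were enough to pass the filter on dim signal, so the p adds little weight.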
